A study of Arabidopsis thaliana with 18 samples.

Results

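The data described here are the leaf transcript profiles of wild-type Arabidopsis thaliana (Columbia, Col) after 120 h of low temperature (LT) treatment, set against the same genotype before transfer to the cold. The members were chosen by their labels alone: 3 arrays titled as Col leaves at 120 h of LT and 3 titled as Col leaves at 0 h, that is 6 of the 18 arrays of the series. The series as a whole asked how the loss of tocopherols (vitamin E) in the vte2 mutant changes gene expression in the cold, and its other arrays hold Col at 48 h and vte2 at 0, 48 and 120 h, 3 each. All plants were grown at 22°C by day and 18°C at night with 12 h of light of 120 μmol photons per m2 per s, and at 4 weeks of age the treated ones were moved to 7°C in the same light cycle. Each array held RNA pooled from leaves 9 to 11 of 3 plants harvested 1 h into the light period, the 0 h plants having stayed at the growth temperature, so both groups were of the same genotype by label and differed by the cold and by 120 h of age.

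One limit belongs before any result. The genotype labels at 120 h are in doubt. Of the 77 probe sets that differed between vte2 and Col at 48 h, 71 had the opposite sign at 120 h, 51 of them differed past the test in that opposite direction, and 0 differed past the test in the same direction. The arrays are used as labelled and are called "labelled Col" at 120 h, and the change measured in the arrays labelled vte2 is given beside results that turn on it. The gene mutated in vte2 has no probe set among those that could be named, so it was not used to check labels, and the labels at 0 h were not checked here.

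Cold is known to act on leaves of this plant along several lines. Transfer to low temperature above freezing starts cold acclimation, in which CBF transcription factors switch on genes for hydrophilic protective proteins (the COR and dehydrin families), membranes are remodelled, and soluble sugars rise because growth and sugar export slow more than photosynthesis does. The excess of absorbed light over use is met by fewer light-harvesting proteins and more anthocyanin, and enzymes and ribosomes, which work slowly in the cold, are made in larger amounts over days. Transcript levels after 120 h describe leaves well into this adjustment.

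Each gene is read on the ATH1 array by a probe set whose value is a log2 expression level made by the RMA method, so that a difference of 1 is a 2-fold change. Levels of different probe sets are not comparable with each other, and only changes of one probe set between groups are interpreted. A probe set is said to rise, fall or pass the test where limma gave an adjusted p under 0.05. The values are averages over all cells of the leaves, in which fewer cells of a type and less RNA per cell cannot be told apart.

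In arrays labelled Col, 6613 of 22810 probe sets (29.0%) differed between 120 and 0 h. Of these, 3716 (16.3% of those tested) were higher and 2897 (12.7%) lower at 120 h. The change also exceeded 2-fold for 1459 higher (6.40%) and 1185 lower (5.20%) probe sets, and exceeded 8-fold for 87 and 67. The median change over all probe sets was -0.036 (log2), and the median size of a called change was 0.861. All 3 arrays labelled Col at 120 h lay above all 3 at 0 h for 4835 probe sets (21.2%) and below them for 4563 (20.0%). A gene could be named for 13355 of the probe sets tested, one per gene, and of these 1992 (14.9%) rose and 1493 (11.2%) fell. Counts of list members below stand against the 16.3% and 12.7% of all probe sets, or 18.0% and 13.9% where replicate 3 at 0 h is left out.

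The 3 arrays labelled Col at 120 h were close to one another, with correlations across probe sets of 0.995 to 0.998 and a median SD of 0.107 per probe set. The 3 Col arrays at 0 h were not, with correlations of 0.937 to 0.991 and a median SD of 0.211. Replicate 3 at 0 h stood apart. It was over 2-fold above the mean of replicates 1 and 2 for 1291 probe sets and over 2-fold below it for 1187, whereas replicates 1 and 2 were over 2-fold apart for 106. Without this array 7273 probe sets differed (31.9%), 5795 of them also called with it in the same direction, while 818 calls were lost and 1478 gained. Of the 241 called probe sets that are in the gene lists examined or among the 10 largest changes each way, 22 lost their call without it. COR15A, SWEET2, At3g48640 and At2g31790 had the largest changes among these. Replicate 3 of vte2 at 0 h lay apart in the same direction as that of Col for some genes, picked as examples. In vte2 at 0 h COR15A had 11.25, 10.66 and 8.15, AKINBETA1 9.28, 9.82 and 6.39, and PWD 6.57, 6.01 and 8.57. For psbD, given below, it lay the opposite way. Without both replicate 3 arrays at 0 h 8617 probe sets differed between 120 and 0 h in arrays labelled Col. The reason was not tested. The markers of leaf mesophyll that could be named, RCA (Rubisco activase), PRK (phosphoribulokinase) and HPR (hydroxypyruvate reductase), were high in all 6 arrays, with RCA between 13.21 and 13.25 at 120 h and between 13.36 and 13.63 at 0 h. PYK10, a beta-glucosidase of roots, was at 3.14 to 3.24 at 120 h and 3.32 to 3.77 at 0 h. FMA, a regulator of guard cell formation, changed by -0.50 (adjusted p = 0.0338) and lost its call without replicate 3 at 0 h. No marker of seeds or flowers was among the named genes.

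The largest rise was that of At4g12490, a gene the files give no function for, with 11.74, 11.67 and 11.72 in arrays labelled Col at 120 h, against 5.02, 5.50 and 4.54 at 0 h, a change of 6.69 (log2, standard error 1.02, adjusted p = 0.000143). Its neighbour in locus number, At4g12500, had 9.01, 8.71 and 8.95, against 3.15, 2.77 and 3.12 at 0 h, a change of 5.88 (standard error 0.46). Both genes were far above every Col start array, and the arrays labelled vte2 showed changes of 5.43 and 5.25. One vte2 start array was high, with At4g12490 at 4.05, 10.03 and 4.76 and At4g12500 at 3.15, 5.23 and 3.27 in vte2 at 0 h. DFR (At5g42800), dihydroflavonol reductase of anthocyanin synthesis, came between them with 10.08, 10.28 and 10.28 at 120 h, against 4.52, 4.34 and 3.76 at 0 h, a change of 6.01 (standard error 0.28, adjusted p = 3.8e-09). PDF1.2 (At5g44420), a plant defensin used as a marker of the jasmonate and ethylene response, reached 10.14, 10.20 and 10.07 at 120 h, against 4.42, 5.55 and 4.84 at 0 h, a change of 5.20 (standard error 0.44). This family has near-identical copies whose probes may share signal, so the gene behind the value is uncertain. At1g16850 rose by 4.92 (standard error 0.30) and At5g55450 by 4.17 (standard error 0.46), both without a function in the files.

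At3g13610 encodes F6'H1, feruloyl-CoA hydroxylase, which makes the precursor of the coumarin scopoletin. It had 8.08, 8.60 and 8.51 in arrays labelled Col at 120 h, against 4.48, 3.84 and 3.71 at 0 h, a change of 4.39 (standard error 0.33, adjusted p = 2.27e-07). In arrays labelled vte2 the change over the same time was -0.04, and the difference between the responses passed the test. Of the 10 largest rises, this was the one that depended most on which 120 h label was used.

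The largest falls were led by At1g62480, at 4.70, 4.71 and 4.70 in arrays labelled Col at 120 h, against 10.74, 10.53 and 9.38 at 0 h, a change of -5.51 (standard error 0.37, adjusted p = 9.13e-08). At4g21870 followed with -4.91 (standard error 0.74) and At1g13650 with -4.43 (standard error 0.79). Most of the 10 largest falls shared one feature at the start. At5g62360 had 4.85, 5.07 and 4.80 at 120 h, against 11.14, 11.01 and 5.11 at 0 h, so that replicate 3 at 0 h lay beside the 120 h arrays, and the change was -4.18 (standard error 1.50, adjusted p = 0.0495). The change in At4g37240 was -3.94 (adjusted p = 0.0242), with 3.85 in replicate 3 at 0 h and 9.10 and 9.24 in the other start arrays. Replicate 3 was the lowest start array for 9 of these 10 genes. The exception was EXPA8 (At2g40610), an expansin that loosens cell walls, with 4.11, 3.82 and 4.42 at 120 h, against 7.37, 7.51 and 8.90 at 0 h, a change of -3.81 (standard error 0.38, adjusted p = 3.18e-06). Without replicate 3 all 10 falls passed the test, from -3.33 for EXPA8 to -6.17 for At5g62360. None of the others among the 10 has a function in the files.

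**Figure D1:**
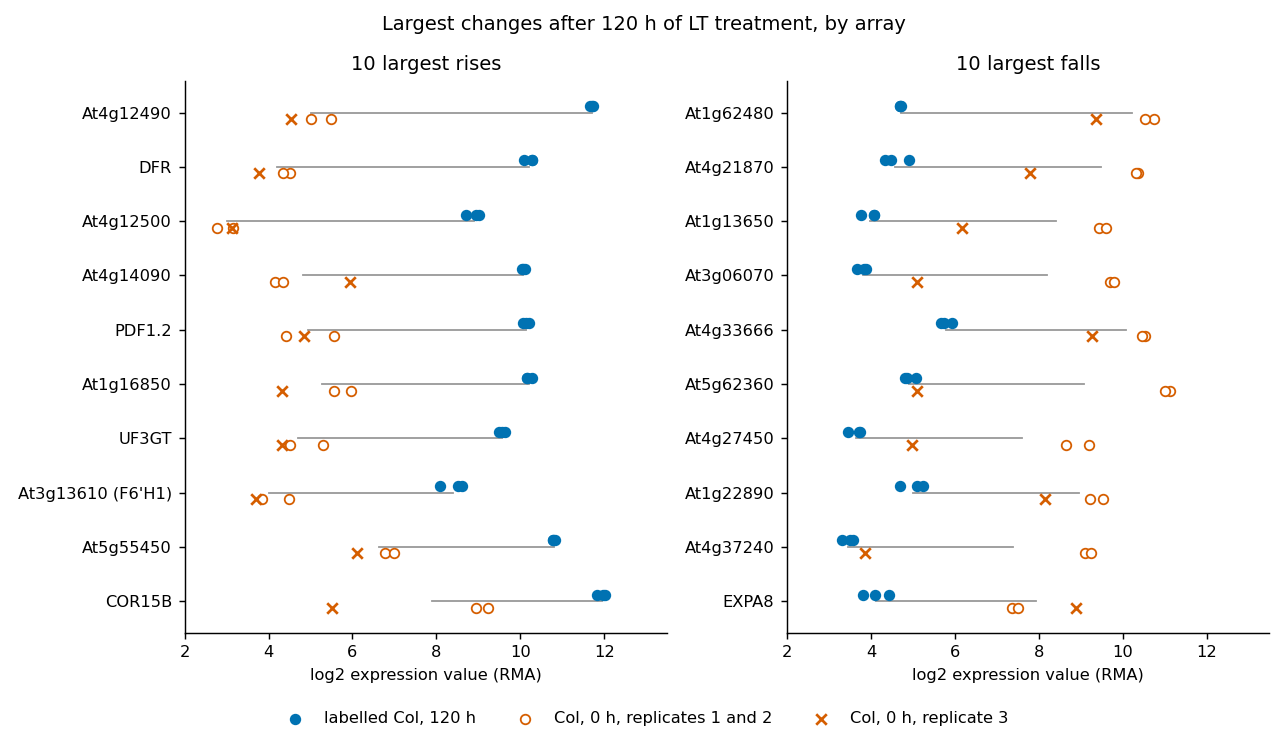
Log2 expression values (RMA) of the 10 largest rises and 10 largest falls, with 1 point per array: filled points are arrays labelled Col at 120 h, open circles Col at 0 h replicates 1 and 2, crosses Col at 0 h replicate 3, and grey lines join the group means. The 120 h points lie close together in every row, while the cross lies toward the 120 h values in 9 of the 10 falls, at 5.11 against 11.14 and 11.01 for At5g62360.

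Cold acclimation proteins were higher in part. Of 6 named members of the list (COR15A, COR15B, COR27, LTI30, COR47 and At4g33980), 3 rose and 0 fell, where 16.3% and 12.7% of all probe sets did, with a median change of 1.72 against -0.04 over named genes. Without replicate 3 at 0 h 2 rose, 1 fell and the median was 0.91. COR15B (At2g42530), which protects chloroplast membranes during freezing, had 11.84, 11.97 and 12.03 in arrays labelled Col at 120 h, against 9.23, 8.94 and 5.52 at 0 h, a change of 4.05 (standard error 0.76, adjusted p = 0.000824). COR15A (At2g42540), its close relative, had 13.23, 13.08 and 13.13, against 11.78, 11.51 and 7.52, a change of 2.88 (standard error 0.88, adjusted p = 0.0221). Both groups were separate, but the start arrays themselves spread over more than 3 log2 units. Without replicate 3 at 0 h the change was 2.86 for COR15B (adjusted p = 0.0005) and 1.50 for COR15A (adjusted p = 0.0605), so the call for COR15A rested on that array. COR27 (At5g42900), a cold-induced nuclear regulator tied to the clock, was low throughout, at 4.49, 4.54 and 4.64 against 3.17, 3.31 and 3.51, and rose by 1.23 (standard error 0.23, adjusted p = 0.000922).

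The dehydrins of this list that could be named, LTI30 and COR47, did not pass the test, and their values moved with replicate 3 at 0 h. ERD10, ERD14 and RAB18 had no probe set that could be named and were not read. LTI30 (At3g50970) had 9.83, 10.20 and 10.13 at 120 h, against 9.65, 9.75 and 4.09 at 0 h, a change of 2.22 (adjusted p = 0.16) that was 0.35 without replicate 3. COR47 (At1g20440) had 9.85, 9.68 and 9.71 at 120 h, against 12.07, 12.03 and 8.46 at 0 h, a change of -1.11 (adjusted p = 0.32). Relative to replicates 1 and 2 alone it fell (-2.30, adjusted p = 0.0023). Both of those start arrays held COR47 above every 120 h array. STZ (At1g27730), a zinc finger repressor induced early by cold, had 7.94, 7.99 and 7.92, against 9.38, 9.79 and 7.02, and differed by -0.78 (adjusted p = 0.326), or by -1.64 without replicate 3, past the test. LTI30, COR47 and STZ were chosen after their values were seen.

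The wider list of dehydration-related genes held 14 named members, COR15A and COR15B among them, of which 3 rose and 1 fell (median 0.28). Without replicate 3 at 0 h 2 rose and 3 fell (median 0.02). A pair of drought-induced genes moved in opposite directions with tight replicates. DI21 (At4g15910) had 6.59, 6.60 and 6.54 at 120 h, against 4.78, 5.12 and 4.84 at 0 h, a rise of 1.66 (standard error 0.13, adjusted p = 3.44e-07). DI19 (At1g56280), a zinc finger protein, had 8.55, 8.38 and 8.40, against 10.91, 10.92 and 11.46, a change of -2.65 (standard error 0.12, adjusted p = 3.61e-09).

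**Figure D2:**
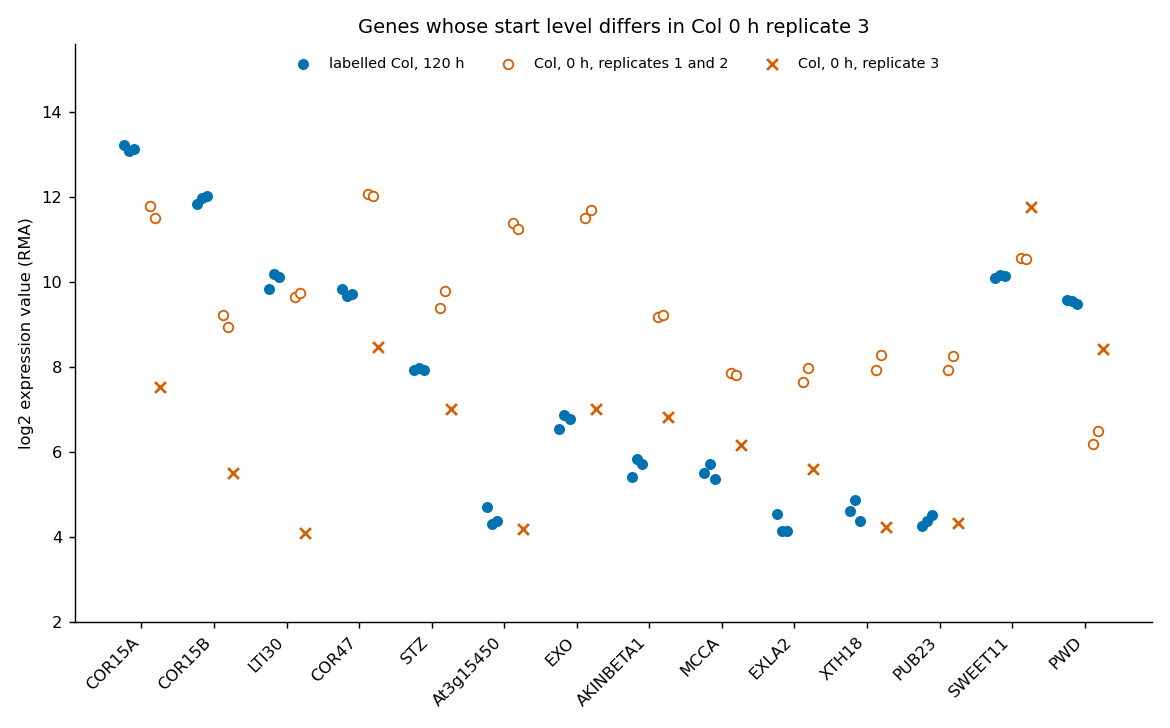
Log2 expression values (RMA) by array for 14 genes, chosen after their values were seen, whose level at 0 h differed in replicate 3: filled points are arrays labelled Col at 120 h, open circles Col at 0 h replicates 1 and 2, and crosses Col at 0 h replicate 3. Crosses lie below the open circles for all genes but SWEET11 and PWD, and for At3g15450 the cross (4.18) lies beside the 120 h points (4.71, 4.30 and 4.38).

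Flavonoid and anthocyanin enzymes rose as a group. Of 7 named members 6 rose and 0 fell, with a median change of 2.77. UF3GT (At5g54060), which adds xylose to anthocyanins, had 9.49, 9.64 and 9.55 at 120 h, against 5.29, 4.50 and 4.33 at 0 h, a change of 4.85 (standard error 0.26, adjusted p = 1.49e-08). At4g14090 was at 10.11, 10.03 and 10.06, against 4.16, 4.34 and 5.93, and rose by 5.26 (standard error 0.49). These late steps, with DFR, were raised by over 4 log2 units in each case. AT5MAT (At3g29590), the anthocyanin malonyltransferase, rose by 2.77 (standard error 0.16), CHIL (At5g05270), related to chalcone isomerase, by 1.59 (standard error 0.52), and UGT78D1 (At1g30530), a flavonol rhamnosyltransferase, by 1.28 (standard error 0.42). UGT78D2 (At5g17050), which adds glucose to anthocyanidins and flavonols, had 10.35, 10.18 and 10.12 at 120 h, against 7.34, 7.54 and 11.17 at 0 h, and did not pass (1.53, adjusted p = 0.261). Without replicate 3 at 0 h all 7 rose, against 18.0% of all probe sets in that fit. In arrays labelled vte2 at 120 h against vte2 at 0 h, where 14.0% of all probe sets rose and 9.53% fell, 5 of the 7 rose and the median was 1.92, with DFR at 4.44, UF3GT at 2.59 and AT5MAT at 1.24.

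Single sugar carriers passed the test in either direction. Of 7 named sugar transporters and invertases 2 rose and 2 fell (median -0.82), or 2 and 3 without replicate 3 at 0 h (median -0.42). Of 17 named members of the SWEET and TMT families 3 rose and 2 fell, shares near the 16.3% and 12.7% of all probe sets. SWEET17 (At4g15920), a fructose carrier of the vacuole membrane, had 4.50, 5.32 and 4.96 in arrays labelled Col at 120 h, against 8.47, 8.51 and 7.51 at 0 h, a change of -3.24 (standard error 0.26, adjusted p = 4.3e-07). SWEET13 (At5g50800), a sucrose exporter of the plasma membrane, had 8.77, 8.89 and 8.81, against 5.57, 5.67 and 6.85, a change of 2.79 (standard error 0.45). TMT2 (At4g35300), which loads sugars into the vacuole, had 7.57, 7.95 and 7.91, against 6.04, 6.30 and 7.20, a change of 1.29 (standard error 0.27). A vacuolar importer and a plasma membrane exporter were higher and a vacuolar fructose carrier lower. SAG29 (At5g13170, also known as SWEET15) rose by 1.20 (standard error 0.17), At1g62660 changed by -1.72 (standard error 0.20), and SWEET2 by -1.43 (standard error 0.41), the last losing its call without replicate 3 at 0 h (-0.92, adjusted p = 0.0632). SWEET11 (At3g48740), a sucrose exporter that feeds the phloem, had 10.09, 10.17 and 10.14 at 120 h, against 10.56, 10.55 and 11.76 at 0 h, and did not pass (-0.82, adjusted p = 0.0867). Under the vte2 labels 0 of the 7 transporters and invertases rose and 3 fell (median 0.13). Of the 17 SWEET and TMT members 2 rose and 2 fell there. SWEET13 changed by 3.21, SWEET17 by -2.19, TMT2 by 0.78, SAG29 by 0.13, At1g62660 by -1.50 and SWEET2 by 0.05. The difference of the responses passed the test for SAG29 alone of these.

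Only a few starch genes could be named. APL3 (At4g39210), a large subunit of ADP-glucose pyrophosphorylase known to respond to sugar, had 8.30, 8.45 and 8.44 at 120 h, against 4.85, 5.47 and 5.75 at 0 h, a change of 3.04 (standard error 0.34, adjusted p = 9.79e-06). It was the single riser of 3 named starch synthesis genes. PWD (At5g26570), phosphoglucan water dikinase of starch breakdown, had 9.57, 9.55 and 9.49, against 6.18, 6.49 and 8.42, a change of 2.51 (standard error 0.55, adjusted p = 0.0028), and it too was the 1 riser of 3. With the vte2 labels APL3 changed by 0.89 and PWD by 2.40.

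Among genes known to be high in darkness or at low sugar some fell. Of 7 named members 3 fell, 0 rose and 4 did not pass, where 12.7% of all probe sets fell, and without replicate 3 at 0 h 5 fell (median -1.75 with it and -2.54 without it, 13.9% of all probe sets falling without it). EXO (At4g08950), EXORDIUM, had 6.54, 6.88 and 6.77 at 120 h, against 11.50, 11.69 and 7.02 at 0 h, a change of -3.34 (standard error 1.20, adjusted p = 0.0485). AKINBETA1 (At5g21170), a subunit of the energy-sensing SnRK1 kinase, had 5.40, 5.83 and 5.72, against 9.18, 9.21 and 6.81, a change of -2.75 (standard error 0.71). MCCA (At1g03090), a carboxylase subunit of leucine breakdown, had 5.52, 5.72 and 5.37, against 7.87, 7.82 and 6.17, a change of -1.75 (standard error 0.52). In all of these replicate 3 at 0 h lay nearest to the 120 h arrays. At3g15450, chosen after its values were seen, had 4.71, 4.30 and 4.38 at 120 h, against 11.40, 11.25 and 4.18 at 0 h, and did not pass with all arrays (-4.48, adjusted p = 0.0699). BZIP53 (At3g62420), a transcription factor active at low energy, had 8.43, 8.44 and 8.29, against 10.84, 11.01 and 8.12 (-1.60, adjusted p = 0.107).

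The nuclear photosystem and light-harvesting genes that could be named fell. Of 32 photosystem and electron transport genes listed 6 could be named, and all 6 fell (median -0.75). Of 19 light-harvesting genes listed 3 could be named, all for the antenna protein CP29, and all 3 fell (median -1.68). The other genes of these lists were not read. At1g51400, a small protein of photosystem II, had 10.19, 10.20 and 9.98 in arrays labelled Col at 120 h, against 12.63, 12.48 and 12.35 at 0 h, a change of -2.36 (standard error 0.15, adjusted p = 4.96e-08). Members of both photosystems were among the others, namely PSB27 (-0.88), PSAN (-0.86), PSAE-1 (-0.65), PSBY (-0.44) and PSBW (-0.40). The 3 genes for the CP29 antenna protein fell by different amounts. LHCB4.2 (At3g08940) had 11.02, 11.02 and 10.91, against 12.99, 13.01 and 12.62, a change of -1.89 (standard error 0.15), LHCB4.3 changed by -1.68 (standard error 0.20) and LHCB4.1 by -0.49 (standard error 0.12). All 3 named genes of photorespiration also fell (median -0.86), with HPR (At1g68010) at 11.53, 11.88 and 11.86 against 12.53, 12.59 and 12.71, a change of -0.86 (standard error 0.11). Of 3 named Calvin cycle genes SBPASE, a bisphosphatase that regenerates the carbon acceptor, changed by -0.39 (adjusted p = 0.0282, lost without replicate 3 at 0 h at -0.26), and RCA and PRK did not pass.

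Pigment synthesis followed in part. Of 13 named genes of tetrapyrrole synthesis, the route to chlorophyll and heme, 5 fell and 1 rose (median -0.02). CHLM (At4g25080), a methyltransferase of the magnesium branch, had 9.96, 9.79 and 9.83 at 120 h, against 11.35, 11.42 and 11.29 at 0 h, a change of -1.49 (standard error 0.12, adjusted p = 4.36e-07). HEME1 (uroporphyrinogen decarboxylase) changed by -1.01 and HEMB1 (aminolevulinate dehydratase) by -0.73. GSA1 (At5g63570), the aminomutase that makes aminolevulinate, was the 1 riser, at 10.23, 10.29 and 10.29 against 9.35, 9.31 and 9.64, a change of 0.84 (standard error 0.14).

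In arrays labelled Col more plastid-encoded probe sets rose than fell, unlike the nuclear photosystem and light-harvesting genes named above. The sources used here do not say how plastid RNA was primed for labelling, and the effect of this on the values was not tested. Of 69 named probe sets for plastid genes 29 rose and 1 fell, with a median change of 0.65, and without replicate 3 at 0 h 36 rose and 0 fell (median 0.63). The largest were petN, with 8.82, 8.72 and 8.49 at 120 h, against 5.28, 5.08 and 5.76 at 0 h (3.30, standard error 0.29), and petD, with 8.22, 8.19 and 8.11, against 4.95, 4.85 and 5.16 (3.19, standard error 0.13, adjusted p = 1.36e-09), both subunits of the cytochrome complex between the photosystems. The ribosomal protein gene rpl20 had 9.81, 10.26 and 9.54, against 7.15, 7.05 and 6.66 (2.92, standard error 0.40). The gene ndhF, for a subunit of the plastid dehydrogenase complex, had 6.85, 6.86 and 7.07, against 4.49, 4.03 and 3.90 (2.78, standard error 0.38). The groups were far apart for all 4 genes. Others that rose were rbcL, the large subunit of Rubisco (2.32), psbD, a reaction centre protein (2.50), and rpoB, a subunit of the plastid RNA polymerase (1.64). The single faller, atpA of the ATP synthase, changed by -0.96 (adjusted p = 0.0206) and lost its call without replicate 3 at 0 h (-0.87).

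The plastid-encoded genes behaved otherwise in the arrays labelled vte2 at 120 h. In arrays labelled vte2 8 of the 69 rose and 19 fell (median -0.43). The fitted change was more positive in arrays labelled Col for 67 of 69, but the difference of the responses passed the test for 6, all of them negative (vte2 minus Col), against 1.04% of all probe sets in that direction. The group medians of the 69 levels were 10.28 in arrays labelled Col at 120 h and 9.91 in Col at 0 h, and 10.14 and 10.59 in the arrays labelled vte2 at 120 h and in vte2 at 0 h. The start levels were set side by side too, with a median difference of 0.57 between vte2 and Col at 0 h for which 0 of 69 passed limma's test and 40 had an unadjusted p under 0.05. The gene psbD had 10.52, 10.72 and 9.51 in vte2 at 0 h, against 6.69, 7.23 and 9.15 in Col at 0 h.

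**Figure D3:**
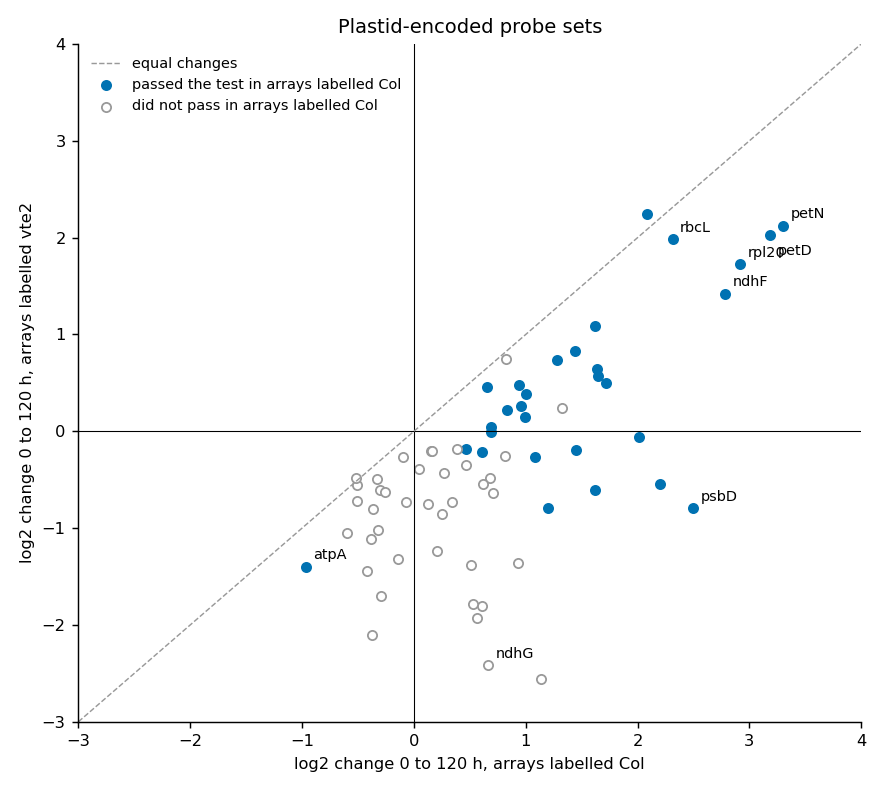
Log2 change between 0 and 120 h of the 69 plastid-encoded probe sets in arrays labelled Col (horizontal) and in arrays labelled vte2 (vertical); filled points passed the test in arrays labelled Col, open points did not, and the dashed line marks equal changes. The points lie below the dashed line for 67 of the 69 probe sets, with petN and petD raised on both axes and psbD at 2.50 and -0.79.

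Genes of respiration and organic acid metabolism were raised. Of 22 named members 10 rose and 1 fell (median 0.47). SDH1-1 (At5g66760), the flavoprotein of succinate dehydrogenase, averaged 10.09 ± 0.077 at 120 h, against 8.48 ± 0.241 at 0 h (SD, n = 3 each), with no overlap, a change of 1.61 (standard error 0.16, adjusted p = 2.47e-06). NDB2 (At4g05020), an external NADH dehydrogenase that passes electrons to ubiquinone without pumping protons, had 9.30, 9.41 and 9.56, against 7.10, 7.47 and 7.79, a change of 1.97 (standard error 0.29), and NDB1, a related enzyme, rose by 0.99 (standard error 0.19). CYTC-1, a gene for cytochrome c, rose by 1.02 (standard error 0.11). The iron-sulfur subunits of succinate dehydrogenase rose as well, SDH2-1 by 0.99 and SDH2-2 by 0.72, with isocitrate dehydrogenase genes IDH-V (0.74), IDH-VI (0.97) and ICDH (0.87), and PPDK, pyruvate phosphate dikinase (0.77). The cytosolic isocitrate dehydrogenase gene cICDH was the faller, at -0.67 (adjusted p = 0.0242, lost without replicate 3 at 0 h at -0.47). For the vte2 labels 8 of the 22 rose and 1 fell (median 0.23). Of 8 named genes of branched-chain amino acid breakdown 2 rose and 2 fell, ETFQO (-1.11) and MCCA among the fallers and ETFBETA (0.85, lost without replicate 3 at 0 h at 0.60, adjusted p = 0.072) and ETFALPHA (0.60) the risers. ETFQO, ETFBETA and ETFALPHA together carry electrons from this pathway to the respiratory chain.

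The machinery of RNA synthesis and ribosome assembly was higher. Of 14 named nucleolar and RNA polymerase genes 10 rose and 0 fell (median 0.66), and among arrays labelled vte2 9 rose and 0 fell (median 0.78). NRPB9B (At4g16265), a subunit of RNA polymerase II, had 7.63, 7.58 and 7.43 at 120 h, against 5.12, 5.21 and 5.56 at 0 h, a change of 2.25 (standard error 0.13, adjusted p = 2.38e-08). YAO (At4g05410), a nucleolar protein of ribosomal RNA processing, had 6.39, 6.60 and 6.55, against 4.95, 5.48 and 5.53, a change of 1.19 (standard error 0.17). The large subunits of RNA polymerase I, which transcribes ribosomal RNA, rose less, NRPA1 by 0.66 (standard error 0.16) and NRPA2 by 0.40 (standard error 0.13), as did IMP4 (0.65), NRPB12 (1.04), NRPB6B (0.96), NRPB7 (0.89), NRPC1 (0.69) and NRPC2 (0.51, lost without replicate 3 at 0 h at 0.36, adjusted p = 0.0706). NRPB6A, NRPB9A, PRH75 and XCT did not pass, so that of the paralogous pairs for subunits 6 and 9 of polymerase II the B copy rose in each case while the A copy had 0.35 and -0.15.

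Of 7 genes drawn by symbol as histones 5 rose and 0 fell, although HISN5B, one of the risers (0.33), is an enzyme of histidine synthesis caught by its name. HTB2 (At5g22880), a histone H2B, had 8.14, 8.25 and 8.04 at 120 h, against 5.36, 6.26 and 7.11 at 0 h, a change of 1.90 (standard error 0.35), HTB11 rose by 1.00 and HTB1 by 0.65, and HTR12, the centromeric histone, by 0.51 (0.38 without replicate 3 at 0 h, adjusted p = 0.0941).

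Protein handling in the secretory path was raised in part. Of 16 named genes of folding and quality control in the endoplasmic reticulum 5 rose and 0 fell (median 0.27). CRT1b (At1g09210), a calreticulin chaperone, had 11.11, 11.15 and 11.15 at 120 h, against 8.87, 8.80 and 8.57 at 0 h, a change of 2.39 (standard error 0.37, adjusted p = 0.000145). The co-chaperones ATERDJ3B (1.80) and ATERDJ2A (1.16) and the degradation factors OS9 (0.92) and DER1 (0.66) rose with it. The transcription factors BZIP28 (-0.50), BZIP17 (0.35) and BZIP60 (0.49) did not pass. Under the vte2 labels 2 of the 16 rose and 3 fell. In a list of vacuolar processing and proton pump genes 5 of 7 rose and 0 fell (median 0.60). BETA-VPE (At1g62710), a protease that matures vacuolar proteins, had 8.92, 8.64 and 8.70, against 5.07, 5.50 and 4.45, a change of 3.75 (standard error 0.30, adjusted p = 4.06e-07), and GAMMA-VPE (At4g32940), the main form of leaves, had 10.77, 10.77 and 10.78, against 8.69, 9.07 and 9.59, a change of 1.66 (standard error 0.27). The proton pump subunits VHA-A3 (0.74) and VHA-A1 (0.39) and the weakly expressed ALPHA-VPE (0.42) rose by less. With the vte2 labels 1 of these 7 rose and 0 fell, and BETA-VPE changed by 2.35 and GAMMA-VPE by 0.15.

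Of 10 named autophagy genes 3 rose and 3 fell, or 2 and 4 without replicate 3 at 0 h. ATG8 proteins coat the autophagosome, and within this family ATG8D (1.61), ATG8B (1.02) and ATG8G (0.45) rose, ATG8G losing its call without replicate 3 at 0 h (0.37, adjusted p = 0.117), while ATG8C (-0.57) and ATG8H (-0.84) fell. ATG3, the enzyme that attaches them to lipid, changed by -0.60 (standard error 0.11). Under the vte2 labels 0 of these 10 rose and 5 fell (median -0.67), where 14.0% of all probe sets rose and 9.53% fell. ATG8D changed there by 0.59, ATG8B by -0.17, ATG8H by -1.26 and ATG3 by -0.74.

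**Figure D4:**
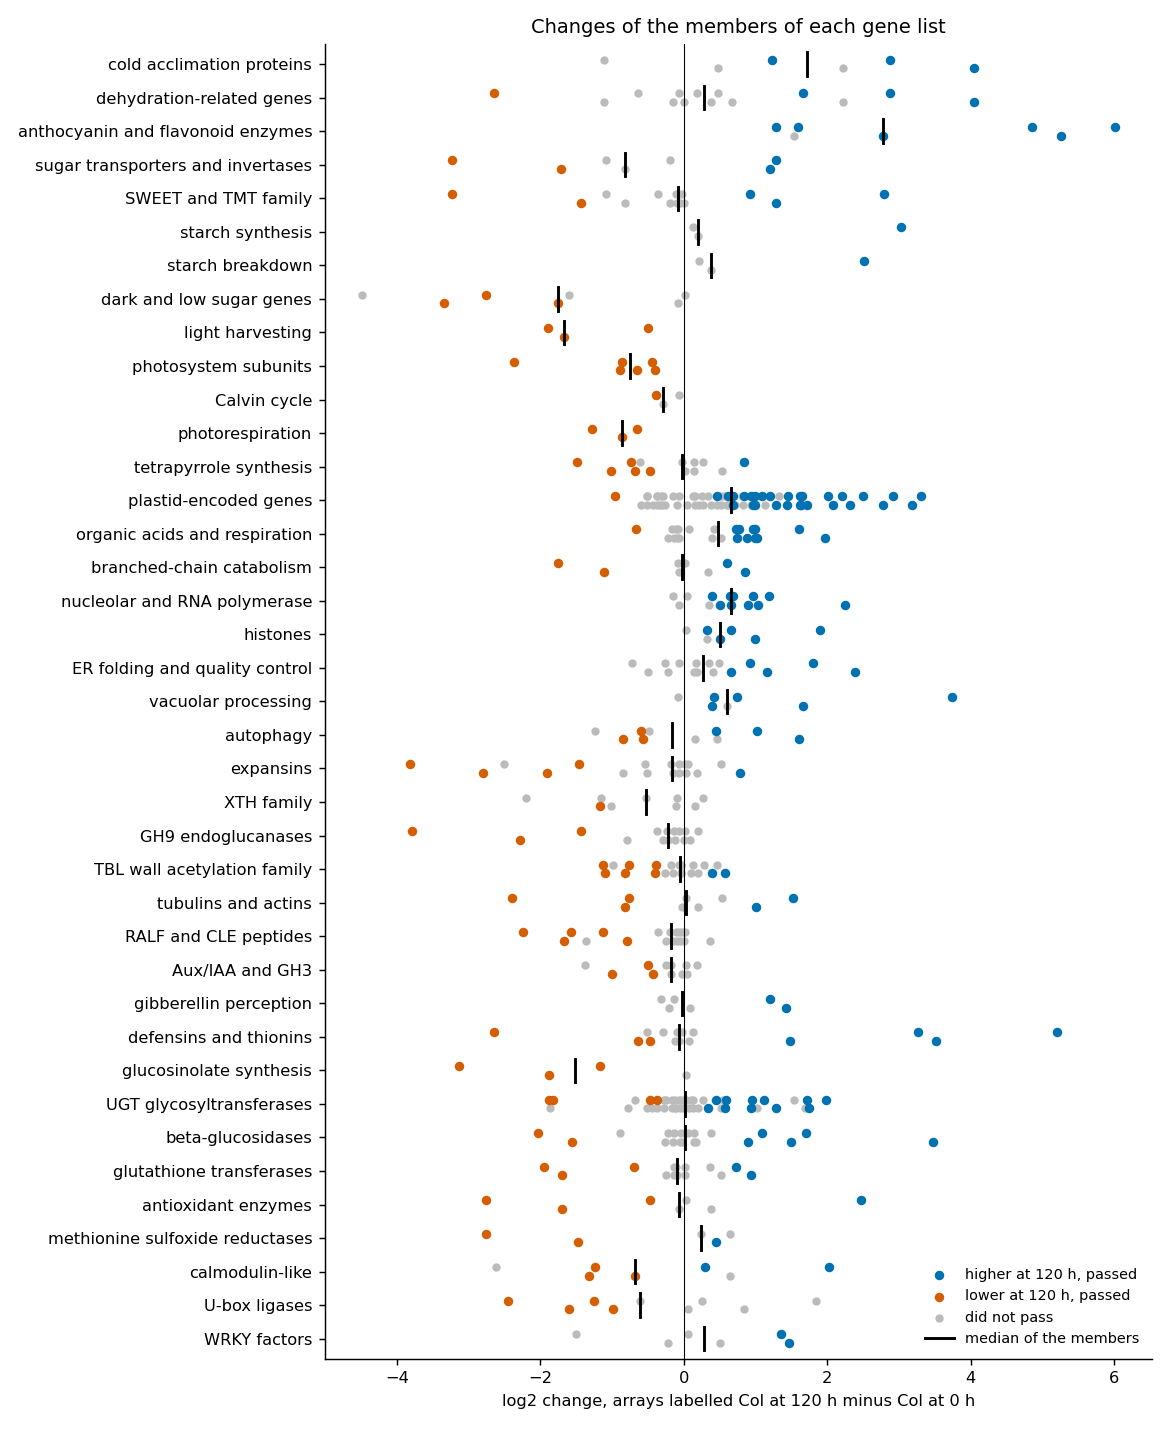
Log2 change in arrays labelled Col at 120 h minus Col at 0 h for every named member of the 39 gene lists described, with 1 point per gene: blue points rose and orange points fell past the test, grey points did not pass, and black bars are the medians of the members. Anthocyanin enzymes (median 2.77) lie to the right, light-harvesting and photosystem genes (medians -1.68 and -0.75) to the left, and the wall and growth families hold most of their passing members on the left.

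Single genes of wall loosening and growth fell by large amounts, while their families had medians near 0. Of 18 named expansins 4 fell and 1 rose (median -0.16, with 6 falling without replicate 3 at 0 h), of 15 named GH9 endoglucanases 3 fell and 0 rose (median -0.23), and of 22 named TBL genes, which act in acetylation of wall polymers, 6 fell and 2 rose (median -0.06), where 12.7% of all probe sets fell and 16.3% rose. Beside EXPA8, EXPA16 (At3g55500) had 4.90, 4.76 and 4.83 at 120 h, against 6.83, 7.02 and 6.36 at 0 h, a change of -1.91 (standard error 0.26), EXLA2 changed by -2.80 and EXPB1 by -1.46. EXPA9 was the riser (0.78). GH9B8 (At2g32990), a wall glucanase, had 3.15, 3.71 and 3.34, against 7.08, 7.01 and 7.47, a change of -3.79 (standard error 0.51, adjusted p = 4.83e-05), and GH9C2 changed by -2.29 and GH9B7 by -1.44. The 120 h values of GH9B8 and EXPA8 were below the median of all probe sets (5.10 to 5.13) in all 3 arrays. Among TBL genes the changes were smaller, led by TBL28 (-1.13), TBL45 (-1.10), TBL25 (-0.82) and TBL41 (-0.76). Of 9 named XTH genes, enzymes that cut and rejoin xyloglucan, XTH32 alone passed (-1.17, standard error 0.27). EXLA1 had 6.50, 6.86 and 7.05, against 10.77, 10.90 and 6.26, and did not pass (-2.51, adjusted p = 0.121), a gene named after its values were seen.

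Some RALF genes, for small secreted peptides that restrain cell elongation through receptor kinases, fell. Of 18 named RALF and CLE genes 5 fell, 0 rose and 13 did not pass (median -0.17), where 12.7% of all probe sets fell. RALFL34 (At5g67070) had 8.43, 8.21 and 8.28 at 120 h, against 10.07, 9.93 and 9.93 at 0 h, a change of -1.67 (standard error 0.10, adjusted p = 3.32e-08). RALFL24 (At3g23805) had 5.62, 5.73 and 5.80, against 7.85, 7.82 and 8.23, a change of -2.25 (standard error 0.16). RALFL32 changed by -1.57, RALFL33 by -1.13 and CLE26 by -0.79. For RALFL24, RALFL32 and RALFL34 the fall was smaller in arrays labelled vte2 (-1.13, -0.11 and -0.71), and the difference of the responses passed the test for each.

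Other growth genes gave a mixed picture. Of 9 named tubulins and actins 2 rose, TUB1 (1.52) and TUB9 (1.01), and 3 fell, ACT11 (At3g12110), at 4.18, 4.47 and 4.70 against 6.64, 6.83 and 7.04 (-2.39, standard error 0.30), TUB6 (-0.83) and TUB7 (-0.76). Of 11 named Aux/IAA and GH3 genes, which repress auxin responses or inactivate auxin, 3 fell and 0 rose, namely IAA29 and, with changes of -0.50 and -0.43, IAA18 and GH3.9. GH3.3, an auxin-conjugating enzyme named after its values were seen, had 3.55, 3.88 and 3.58, against 5.99, 5.90 and 3.25, and did not pass (-1.38, adjusted p = 0.0722). Of 6 named gibberellin perception genes the receptors GID1A (At3g05120), at 7.62, 7.46 and 7.63 against 6.04, 6.52 and 5.86 (1.43, standard error 0.26), and GID1B (1.20, standard error 0.28) rose, and GID1C (-0.32) and the F-box gene SLY1 (-0.21) did not pass.

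Defence genes moved selectively. Of 15 named defensin and thionin genes 4 rose and 3 fell (median -0.07). Beside PDF1.2, PDF1.2b (At2g26020) had 9.06, 9.24 and 9.22 at 120 h, against 5.55, 5.90 and 5.53 at 0 h, a change of 3.52 (standard error 0.28, adjusted p = 4.3e-07), although its probe set can take up its near-identical copies. LCR69 (At2g02100), a defensin of the PDF2 branch, had 11.58, 11.50 and 11.38, against 8.55, 8.47 and 7.65, a change of 3.26 (standard error 0.18), and PDF2.1 rose by 1.48. THI2.2 (At5g36910), a thionin, had 5.87, 5.24 and 5.05, against 8.50, 8.59 and 7.02, a change of -2.65 (standard error 0.42), and LCR68 (-0.64) and THI2.1 (-0.47) also fell. Of 4 named glucosinolate genes 3 fell (median -1.52). BCAT4 (At3g19710), the aminotransferase that starts methionine chain elongation for aliphatic glucosinolates, had 7.28, 7.35 and 7.23, against 10.48, 10.65 and 10.12, a change of -3.13 (standard error 0.31, adjusted p = 3.08e-06). UGT74B1, which glucosylates the core structure, changed by -1.88 (standard error 0.39), and At2g31790 by -1.16 (adjusted p = 0.036), At2g31790 losing its call without replicate 3 at 0 h (-1.06, adjusted p = 0.0842). None of these fell past the test in arrays labelled vte2, where BCAT4 changed by -0.18.

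Among conjugating enzymes single genes passed in either direction. Of 47 named UGT glycosyltransferases 11 rose and 4 fell (median 0.02), where 16.3% and 12.7% of all probe sets did, and without replicate 3 at 0 h 13 rose and 8 fell. UGT87A2 (At2g30140), known for a role in flowering time, had 9.49, 9.47 and 9.38 at 120 h, against 7.59, 7.46 and 7.33 at 0 h, a change of 1.99 (standard error 0.20), and UGT72B3 rose by 1.74. UGT76C2 (At5g05860), a cytokinin glucosyltransferase, had 5.74, 5.61 and 5.41, against 7.83, 7.69 and 6.70, a change of -1.82 (standard error 0.38). UGT74B1 and UGT78D1, described above, are members of this family too. Of 20 named beta-glucosidases 5 rose and 2 fell. BGLU25 (At3g03640) had 10.31, 10.24 and 10.23, against 6.88, 7.35 and 6.14, a change of 3.47 (standard error 0.33, adjusted p = 2.1e-06), BGLU31 (At5g24540) rose by 1.70 (standard error 0.10), and BGLU40 and BGLU47 changed by -2.03 and -1.56. Of 14 named glutathione transferases 2 rose and 3 fell (median -0.10), close to the shares of all probe sets, GSTU18 (-1.95, standard error 0.24) and GSTU20 (-1.70, standard error 0.20) being the largest. GSTU20 was above the start in Col at 48 h (1.14) and rose in arrays labelled vte2 (0.89), both past the test. GSTU18 changed by -3.70 and -1.49 in the same comparisons.

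Peroxidases of the chloroplast, which remove oxidants, moved both ways. SAPX (At4g08390), the stromal ascorbate peroxidase, had 10.81, 10.88 and 10.85 at 120 h, against 8.11, 8.60 and 8.43 at 0 h, a change of 2.47 (standard error 0.13, adjusted p = 1.49e-08). TAPX (At1g77490), its thylakoid-bound relative, had 8.42, 8.50 and 8.47, against 10.04, 10.02 and 10.42, a change of -1.69 (standard error 0.11, adjusted p = 4.87e-08). The pair moved in opposite directions, and did so in arrays labelled vte2 as well (2.17 and -1.47). Of 7 named antioxidant enzymes 1 rose and 3 fell, SAPX being the riser. MSRB5 (At4g04830), a methionine sulfoxide reductase that repairs oxidized proteins, had 5.92, 5.93 and 6.01, against 8.78, 9.19 and 8.19, a change of -2.76 (standard error 0.30), and MSRB6 changed by -1.48. The vte2 labels gave 0.59 for MSRB5.

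Among calcium and ubiquitin signalling genes more fell than rose in arrays labelled Col. Of 7 named calmodulin-like genes 3 fell, CML42 (-1.32), CML30 (-1.23) and CML23 (-0.68), and 2 rose (1 rose and 4 fell without replicate 3 at 0 h), with CML41 (At3g50770), a protein of plasmodesmata, at 6.86, 7.45 and 7.40 against 5.37, 5.05 and 5.19 (2.03, standard error 0.24). CML38 had 4.65, 5.09 and 5.08, against 9.19, 9.54 and 3.93, and did not pass (-2.61, adjusted p = 0.129), having been named after its values were seen. Of 9 named U-box ubiquitin ligases 4 fell and 0 rose, the stress-response pairs PUB22 (-0.99) and PUB23 (-2.46) and PUB25 (-1.60) and PUB26 (-1.26). PUB23 (At2g35930) again had start replicate 3 at the 120 h level, with 4.25, 4.37 and 4.53 at 120 h, against 7.93, 8.27 and 4.32 at 0 h. Of 6 named WRKY transcription factors 2 rose, WRKY53 (1.47), which promotes senescence, and WRKY6 (1.36). In arrays labelled vte2 0 of the 7 calmodulin-like genes and 0 of the 6 WRKY genes passed. Of the 9 U-box ligases 1 fell and 0 rose there, where 14.0% of all probe sets rose and 9.53% fell.

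Whether the profile at 120 h still differed from that at 48 h was tested within Col. The difference uses no start array, but its standard error comes from the fit over all 18 arrays and holds their spread, and with only the arrays compared 6293 probe sets passed in place of 3985. At 48 h 7368 probe sets (32.3%) already differed from the start. Between these times 3985 probe sets (17.5%) differed, 2163 higher (9.48%) and 1822 lower (7.99%) in arrays labelled Col at 120 h than in Col at 48 h. With cyclic loess scaling the split was 1674 higher and 2204 lower, so the balance of directions depends on the scaling. Read against the start, of the 3716 probe sets higher at 120 h than at 0 h, 958 were further from the start at 120 h than at 48 h, 568 were nearer to it, and 2190 did not pass between 48 and 120 h. Of the 2897 lower at 120 h, the corresponding counts were 376, 274 and 2247. Both comparisons use the 120 h arrays, so these counts are a description.

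The photosystem and light-harvesting genes that could be named were nearer to the start at 120 h than at 48 h. All 6 photosystem subunits and all 3 light-harvesting genes were higher at 120 h than at 48 h (medians 0.35 and 0.72), against 9.48% of all probe sets, while still below the start. LHCB4.2 had means of 12.87 at 0 h and 10.99 at 120 h, with 10.04, 10.18 and 9.78 at 48 h. Nucleolar genes had the reverse course, with 7 of 14 lower and 1 higher at 120 h than at 48 h (median -0.57), NRPA2 having 6.46, 6.46 and 6.62 at 0 h, 8.39, 8.43 and 8.48 at 48 h and 7.08, 6.78 and 6.88 at 120 h. Anthocyanin enzymes stayed up, with 0 of 7 past the test between the times in the fit over 18 arrays (median 0.39). For DFR, At4g14090, UF3GT and AT5MAT, the largest risers of this list, all 3 arrays at 120 h lay above those at 48 h. COR27 was lower at 120 h than at 48 h (adjusted p = 0.00725), with 4.49, 4.54 and 4.64 at 120 h and 5.68, 4.88 and 6.13 at 48 h. COR15A had 13.37, 13.38 and 13.38 at 48 h and COR15B 12.38, 12.44 and 12.52, so that all 3 arrays at 120 h lay below those at 48 h for both genes. In the fit over 18 arrays the differences did not pass (-0.23, standard error 0.88, for COR15A and -0.50, standard error 0.76, for COR15B). With only the arrays compared COR15B passed (standard error 0.092, adjusted p = 0.00613) and COR15A did not (standard error 0.082, adjusted p = 0.0787).

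Some genes were higher in arrays labelled Col at 120 h than in Col at both earlier times. PDF1.2 was higher than at 48 h by 4.56 (standard error 0.44, adjusted p = 1.05e-05), with 5.12, 6.92 and 4.69 at 48 h, and PDF1.2b by 3.85, At1g76960 by 3.87, At1g65500 by 3.24 and At2g40435 by 3.21. APL3 was at 5.76, 6.16 and 5.86 at 48 h and was higher at 120 h by 2.47 (standard error 0.34, adjusted p = 0.000189). The mean of PDF1.2 was 9.11 in arrays labelled vte2 at 120 h, 10.14 in those labelled Col and 5.58 in Col at 48 h. The same 3 means were 7.93, 9.18 and 5.33 for PDF1.2b and 6.78, 9.13 and 5.25 for At1g76960. They were 7.14, 9.13 and 5.89 for At1g65500, 4.79, 7.45 and 4.24 for At2g40435, and 6.38, 8.39 and 5.92 for APL3. The 5 largest falls between these times were of genes higher at 48 h than at both 0 and 120 h in the group means. XTH18 (At4g30280) had 10.84, 8.86 and 11.10 at 48 h, with 7.93, 8.28 and 4.25 at 0 h, and differed at 120 h from 48 h by -5.65 (standard error 1.04, adjusted p = 0.0016). At1g26380 had 10.18, 8.43 and 10.08 at 48 h and differed by -4.84 (standard error 0.42), and At1g66090, At3g01830 and At3g48640 differed by -4.73, -4.41 and -4.34. At1g66090 was below its start level as well (-2.18 from 0 h, adjusted p = 0.00276). Replicate 2 at 48 h was the lowest of the 3 arrays for these 5 falls and the highest for PDF1.2, PDF1.2b, At1g76960, At1g65500, At2g40435 and APL3.

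**Figure D5:**
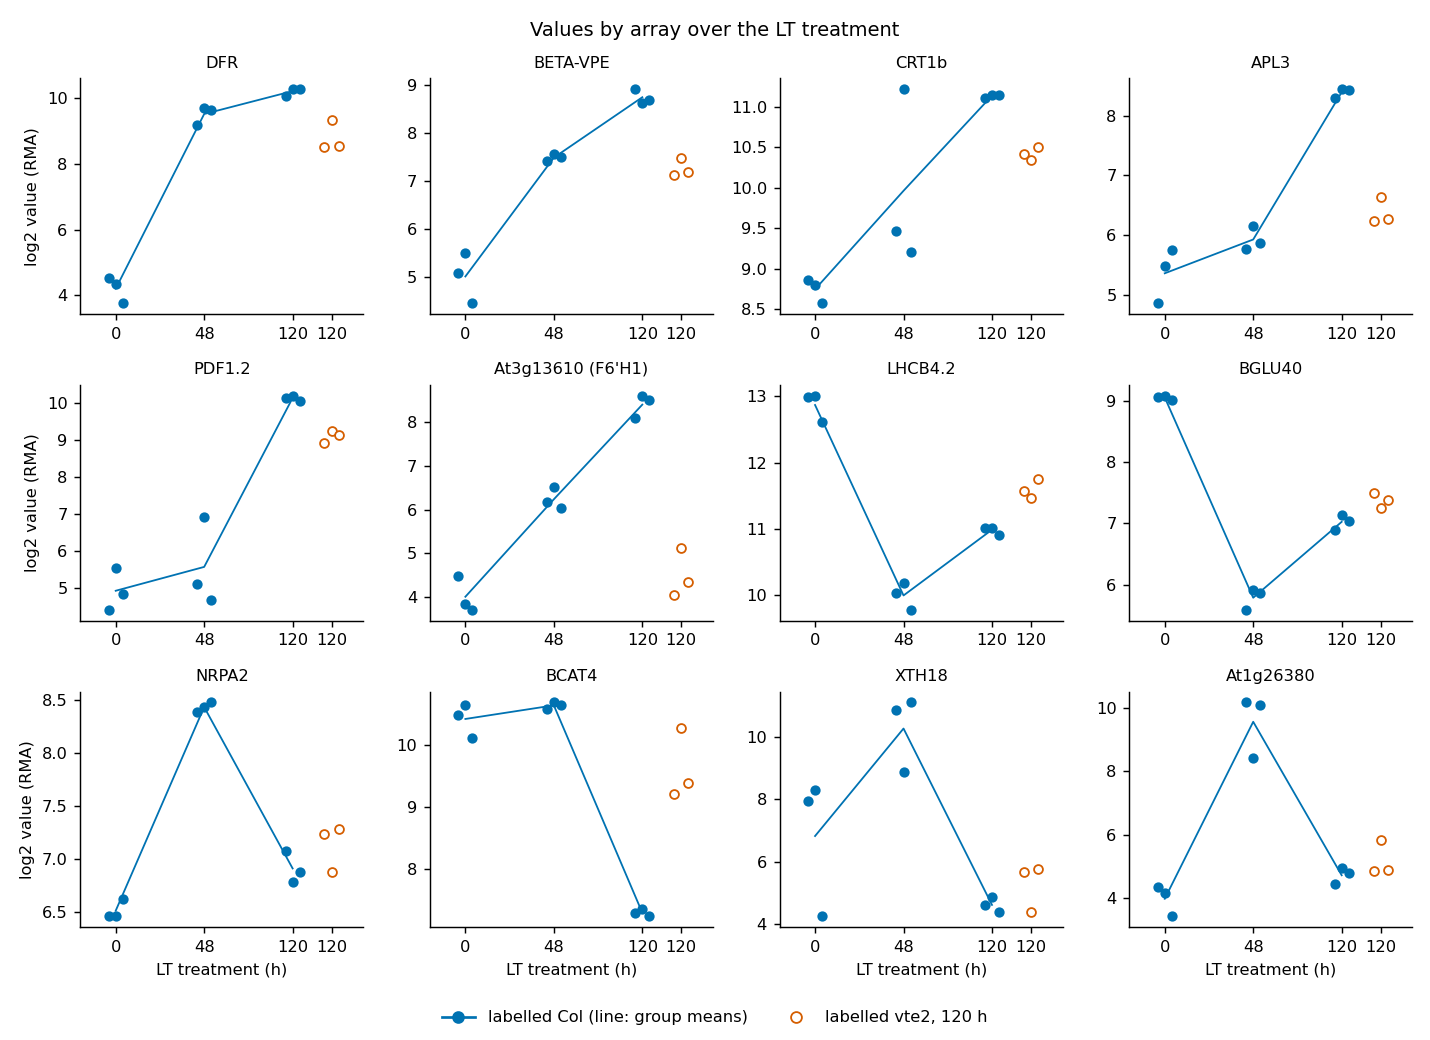
Log2 expression values (RMA) by array at 0, 48 and 120 h (evenly spaced, not to scale in time) for 12 genes named in the text: filled points are Col arrays with a line through the group means, and open points on the right are the arrays labelled vte2 at 120 h. DFR was already high at 48 h, PDF1.2 and APL3 were higher at 120 h than at 48 h, LHCB4.2 and BGLU40 lay between their 0 and 48 h levels, XTH18, At1g26380 and NRPA2 were highest at 48 h, and for At3g13610 and BCAT4 the open points lie far from the labelled Col points at 120 h.

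Where the label doubt bears on a value is shown by the arrays labelled vte2. At 120 h 1490 probe sets (6.53%) separated the arrays labelled vte2 from those labelled Col, 785 higher (3.44%) and 705 lower (3.09%). The response over 120 h was unequal past the test for 518 probe sets (2.27%), positive (vte2 minus Col) for 280 and negative for 238. Within the vte2 labels 5358 probe sets (23.5%) changed over this time. For several of the largest changes the difference of the responses did not pass. At4g12490 changed by 5.43 in arrays labelled vte2, against 6.69 in Col, COR15B by 4.38 against 4.05, and At1g13650 by -3.86 against -4.43. For others it passed. At3g45160 changed by 1.87 in arrays labelled vte2, against -3.11 in Col, MSRB5 by 0.59 against -2.76, At3g26960 by -0.19 against -3.22, At1g76960 by 0.11 against 3.97, and At3g47480 by 0.27 against 3.34. Should the labels at 120 h be exchanged, each of these changes would compare 120 h arrays with 0 h arrays of the other genotype. Arrays labelled vte2 at 120 h minus Col at 0 h gave -0.38 for At3g45160, 0.20 for MSRB5 and -0.95 for At3g26960. The same difference was 1.62 for At1g76960 and 0.90 for At3g47480. Of the first kind, At4g12490 gave 6.7, COR15B 3.81 and At1g13650 -3.96.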

How the data were processed

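Leaf RNA of 18 samples was hybridised to Affymetrix ATH1 arrays, 1 per sample. The values used are log2 expression levels deposited by the authors, who made them by RMA with the affy package, which corrects background, normalizes across arrays and summarises each probe set. A version of the affy package and an annotation release are not given in the sources used here. No scanner files were used, so background and detection could not be examined again, and the number of arrays limits the precision. Array medians within the compared groups lay between 5.03 and 5.15.

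Groups followed the sample titles. For all 22810 probe sets (64 of them array controls), limma 3.58.1 in R 4.3.3 fitted 6 group means over 18 arrays (residual degrees of freedom 12). Adjustment of the p-values was by Benjamini-Hochberg, within each comparison at 0.05. The fit was tested on simulated data. Of the probe sets, 13513 had 1 gene in the platform annotation, 503 several and 8794 none listed. Where several probe sets named 1 gene, only 1 of them stood for it. Gene lists could be read only for genes so named, and 39 of the 69 lists are described.

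Genes were named by rule: the 10 largest called changes each way, the 5 largest each way between 120 and 48 h and between the labelled responses, and list members. Genes said to be chosen after their values were seen fall outside it. The members and lists were chosen with earlier results of these data known. Promoter motifs were not analysed here, and no sequences or coordinates were used.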

Additional observations from a re-analysis of the deposited data

Results flagged for a closer look

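The change from 0 to 120 h was set against the same change in the arrays labelled vte2, and the difference (vte2 minus Col, log2) passed limma's test for 29 of the 161 genes named, 16 negative and 13 positive, where 2.27% of all probe sets passed. The named genes were partly chosen by this difference, so their share is a description.

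Differences were negative, that is the change was less positive in arrays labelled vte2, for At3g13610 (-4.43), At1g76960 (-3.86), psbD (-3.29), ndhG (-3.08), At3g47480 (-3.06), UF3GT (-2.27), APL3 (-2.15), At1g65500 (-2.05), CML41 (-2.03), PDF1.2b (-1.84), UGT87A2 (-1.83), BGLU31 (-1.77), AT5MAT (-1.53), ATG8B (-1.19), petD (-1.16), SAG29 (-1.06).

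They were positive for RALFL34 (0.96), CHLM (1.03), CML30 (1.10), RALFL24 (1.12), RALFL32 (1.45), At4g33666 (2.19), At1g62480 (2.23), GSTU20 (2.59), EXPA8 (2.79), BCAT4 (2.95), At3g26960 (3.03), MSRB5 (3.36), At3g45160 (4.98). The genotype labels at 120 h are in doubt, and the part of this in the differences was not tested.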

How the results depend on the processing

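Between 120 and 0 h in arrays labelled Col, the count of 6613 probe sets stayed within 1.5 times under the scaling, prior, filter, sample and label alternatives, from 4501 with the replicate number as a block over the arrays compared to 9669 with array weights, and was 2644 where a 2-fold change was also required. Leaving out 1 array gave 5215 to 7273. Across times the replicate numbers showed little pairing in Col, where deviations of same-numbered arrays at 120 and 0 h correlated at 0.084, 0.134 and -0.016. Correlations of same-numbered arrays between the genotypes within a time were not computed. The replicate block gave 4501 probe sets over the arrays compared and 8429 within time points over all arrays, and among 161 named genes 26 lost and 0 gained a call in the first and 0 lost and 9 gained in the second.

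Between 120 and 48 h the count of 3985 became 9322 with array weights, 6293 with only the arrays compared and 1386 above 2-fold, and the replicate block gave 5697 and 5612. Leaving out 1 array gave 2570 (without Col replicate 1 at 48 h) to 3985 (without replicate 2, with 3514 calls shared). The difference of responses, 518 probe sets, became 953 with array weights and 1758 without both replicate 3 arrays at 0 h, and 265 to 1169 with 1 array left out: 841 without Col 0 h replicate 3, 329, 284 and 289 without Col 120 h replicates 1, 2 and 3, 1169 without vte2 0 h replicate 3, and 298 and 265 without vte2 120 h replicates 1 and 3. No replicate block was run for this difference.

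Signs turned for some named genes. With vte2-labelled arrays at both times, values were ALPHA-VPE -0.03, ATG8B -0.17, At2g31790 0.57, At3g01830 0.05, At3g13610 -0.04, At3g45160 1.87, BGLU31 -0.07, CML41 -0.0028, ETFBETA -0.14, GID1B -0.32, GSTU16 -0.09, GSTU20 0.89, HTR12 -0.25, MSRB5 0.59, SWEET2 0.05, UGT76C2 0.19, VTC4 0.06, WRKY53 -0.14, ndhG -2.42 and psbD -0.79. With vte2-labelled arrays only at 120 h they were ALPHA-VPE -0.00012, ATG8B -0.14, BGLU31 -0.04, CML41 -0.91, ETFBETA -0.05, GID1B -0.11, GSTU16 -0.13, GSTU20 0.44, MSRB5 0.20, SAG29 -0.08, TBL45 0.15, VTC4 0.03, WRKY53 -0.24 and ndhG -0.39. With all 6 start arrays STZ was 0.12 and ndhG -0.35. At3g01830, which did not pass (-0.31), ranged from -1.09 without Col 0 h replicate 3 to 0.12 without replicate 2. The cause was not tested. The search for promoter motifs was not run.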
